A study of Mus musculus with 47 samples.

Results

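The genes described here are the pore-forming and auxiliary subunits of the voltage-gated sodium channels (Scn genes) and voltage-gated calcium channels (Cacna, Cacnb and Cacng genes) of the mouse. They were chosen by name alone, as every protein-coding gene whose symbol starts with Scn followed by a number and ends in a or b, or starts with Cacna, Cacnb or Cacng. The rule found 40 genes among the 37315 genes counted, of which 21131 are protein-coding. By subunit class they are 10 sodium channel alpha genes, 4 sodium channel beta genes, 4 genes for L-type (Cav1), 3 for P/Q-, N- and R-type (Cav2) and 3 for T-type (Cav3) calcium channel pores, 4 alpha2delta, 4 calcium channel beta and 8 gamma genes.

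RNA from the hypothalamus, hippocampus, neocortex and cerebellum of adult female C57BL/6J mice was sequenced at proestrus, estrus, metestrus and diestrus, the stages of the mouse ovarian cycle. The mice carried no transgene, deletion or treatment named in the labels and were aged 90 to 92 days. There were 3 libraries for each region and stage, apart from the neocortex at estrus with 2, giving 47 in all: 12 each for the hypothalamus, hippocampus and cerebellum and 11 for the neocortex. All proestrus mice were aged 91 days and all estrus mice 90 days, so that for this pair of stages age and stage cannot be told apart, whereas metestrus mice were 90 or 91 and diestrus mice 90 or 92 days old. The hippocampus libraries were made by a different preparation from those of the other 3 regions, so that in every contrast with the hippocampus, region and library preparation cannot be told apart. The labels do not say which libraries of different regions came from the same mouse.

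Total counts ran from 1826368 to 8264980 per library in the hypothalamus, 7672217 to 15680876 in the hippocampus, 6311867 to 10535466 in the neocortex and 2558644 to 7996961 in the cerebellum. The 40 genes took on average 0.336%, 0.456%, 0.457% and 0.474% of all counts in these regions. Summed levels of 10 marker genes per region were highest in that region, on lists chosen with earlier results of these data known. Hypothalamic markers had a median of 779 CPM in the hypothalamus against 3.51 to 7.41 elsewhere. For cerebellar markers it was 6284 CPM in the cerebellum against 131 to 289 elsewhere. The separation was smaller for hippocampal markers, 1746 CPM against 288 to 699 elsewhere, and neocortical markers, 1893 CPM against 176 to 563. CPM are counts scaled to 1000000 counts per library. Lars2, which encodes the leucyl-tRNA synthetase of mitochondria, took 134978 CPM in estrus library 3 of the hypothalamus and 13390 to 105924 CPM in the other hypothalamic libraries, against 4155 to 37903 CPM in the other regions. That library also had the smallest share of channel counts, 0.215%, and it gave the lowest hypothalamic CPM of 26 of the 33 genes tested below. The tests use trimmed-mean (TMM) normalization, which sets such a gene aside, whereas the CPM values do not.

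Voltage-gated sodium channels open on depolarization and carry the upstroke of the action potential, and their beta subunits are adhesion proteins that alter gating and placement in the membrane. Calcium channels couple voltage to transmitter release, gene regulation and burst firing: the pore is an alpha1 subunit, to which high-voltage-activated channels add an intracellular beta and an extracellular alpha2delta subunit that promote surface expression, while T-type channels open near rest. Most gamma proteins found in brain are known chiefly as transmembrane AMPA receptor regulatory proteins (TARPs) rather than as calcium channel subunits.

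Promoter sequence is shown for genes on which the regional results turn: 3 neighbours of the sodium channel cluster on chromosome 2, of which Scn9a and Scn7a were high in the hypothalamus and Scn1a was not, and a pair of alpha2delta genes with opposite levels in hippocampus and cerebellum. Each is the 250 bases before the RefSeq start of the gene (GRCm38.p6), read along the gene's own strand, with CG dinucleotides in capitals. The intervals are chr2:66440838-66441087, chr2:66634963-66635212 and chr2:66784911-66785160 on the minus strand, and chr5:15934441-15934690 and chr9:107399630-107399879 on the plus strand. The RefSeq starts coincide with a GENCODE transcript start (0 bases apart) for all of these but Scn7a, where they lie 4 bases apart.
Scn1a: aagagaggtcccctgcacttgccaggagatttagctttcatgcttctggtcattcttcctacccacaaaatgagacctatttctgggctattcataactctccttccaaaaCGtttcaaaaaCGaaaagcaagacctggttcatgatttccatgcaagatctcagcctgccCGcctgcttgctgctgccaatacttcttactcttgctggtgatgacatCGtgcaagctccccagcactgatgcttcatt
Scn9a: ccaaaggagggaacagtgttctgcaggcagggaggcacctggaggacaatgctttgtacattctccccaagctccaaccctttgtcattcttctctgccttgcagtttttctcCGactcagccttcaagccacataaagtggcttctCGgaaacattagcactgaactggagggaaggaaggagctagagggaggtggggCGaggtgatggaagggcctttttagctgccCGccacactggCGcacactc
Scn7a: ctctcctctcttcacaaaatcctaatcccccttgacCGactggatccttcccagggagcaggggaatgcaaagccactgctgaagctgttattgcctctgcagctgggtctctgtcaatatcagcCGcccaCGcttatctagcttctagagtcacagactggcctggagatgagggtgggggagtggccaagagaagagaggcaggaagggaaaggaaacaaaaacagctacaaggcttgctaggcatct
Cacna2d1: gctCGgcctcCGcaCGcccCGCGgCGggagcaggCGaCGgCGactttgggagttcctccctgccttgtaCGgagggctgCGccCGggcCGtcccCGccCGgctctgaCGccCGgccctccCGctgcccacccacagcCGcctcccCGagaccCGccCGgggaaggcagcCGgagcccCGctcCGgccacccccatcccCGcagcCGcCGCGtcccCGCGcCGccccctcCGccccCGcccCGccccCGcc
Cacna2d2: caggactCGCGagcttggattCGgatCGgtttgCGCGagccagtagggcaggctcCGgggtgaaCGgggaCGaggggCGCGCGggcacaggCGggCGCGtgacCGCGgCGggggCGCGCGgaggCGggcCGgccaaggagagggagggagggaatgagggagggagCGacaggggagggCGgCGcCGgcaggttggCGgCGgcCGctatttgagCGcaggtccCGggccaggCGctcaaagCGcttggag
Scn1a, Scn9a and Scn7a hold 4, 5 and 3 CG dinucleotides in this window, against a median of 6 over all 32851 promoters of the table, while Cacna2d1 and Cacna2d2 hold 36 and 34. The GC box GGGCGG, searched on both strands, occurs in Scn7a, Cacna2d1 and Cacna2d2 and not in the other pair, and in 32.7% of all promoters. TATAAA, searched on both strands, occurs in none of these 5 and in 12.4% of all. Of the 40 genes, 30 had a promoter entry, and those without included Scn3a, Scn3b, Cacna1a, Cacna1g, Cacna1h, Cacna2d4, Cacng1 and Cacng4.

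Most of these genes differed between regions. Of the 33 genes with enough counts to be tested, 25 were called in at least 1 of the 6 contrasts between regions. Of 198 gene-by-contrast tests, 86 were calls. In single contrasts, 7.56% to 18.9% of all genes tested were called, and the share called in at least 1 contrast was not counted. A call is a Benjamini-Hochberg adjusted p under 0.05 over all 16529 genes tested, in edgeR's glmTreat test against a minimum change of 2-fold. Standard errors (SE) on the log2 scale are from a limma-voom fit of the same design, and a positive log2 fold change means higher in the region named first. Levels are given as the lowest to the highest library of a region, with the median in parentheses. In 84 of the 86 calls every library of one region lay above every library of the other. This was also so in 42 of the 112 tests that were not calls. Such separation was not counted over all genes, so these counts are not a result about channel genes. Because these are whole-tissue samples, fewer cells of a type and less RNA per cell cannot be told apart in any of these values.

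The cerebellum stood furthest from the other regions. Against the hippocampus, 19 of the 33 genes were called (6 higher, 13 lower), where 18.9% of all tested genes were called (6.23% higher, 12.7% lower). Against the hypothalamus the count was 20 (9 higher, 11 lower), beside 18.5% of all genes (6.5% higher, 12% lower). Against the neocortex it was 14 (3 higher, 11 lower), beside 17.1% (6.9% higher, 10.2% lower). In the neocortex against the hypothalamus 14 genes were called (7 higher, 7 lower), beside 16.1% of all genes (6.94% higher, 9.2% lower). In the hippocampus against the hypothalamus 11 were called (6 higher, 5 lower), beside 14% (7.8% higher, 6.23% lower). The neocortex and hippocampus were the nearest pair, with 8 calls (3 higher and 5 lower in the neocortex) beside 7.56% of all genes (2.35% higher, 5.2% lower). The median log2 fold change of the 33 genes was between -0.56 and 0.41 in these contrasts, and that of all genes between -0.02 and 0.02. Channel genes were called in both directions in every contrast. Their median lay furthest from that of all genes in the cerebellum against hippocampus (-0.56) and the hippocampus against hypothalamus (0.41). Genes called against all of the other 3 regions in one direction included Scn7a and Scn9a (higher) in the hypothalamus, Scn3b and Cacng8 (higher) in the hippocampus, Cacng3 (higher) and Cacng5 (lower) in the neocortex, and Cacna1g and Cacng5 (higher) in the cerebellum. A further 9 genes were lower in the cerebellum than in each other region: Scn3a, Scn7a, Scn3b, Cacna1b, Cacna1h, Cacna2d1, Cacnb1, Cacng3 and Cacng8. The 8 genes called in no contrast were Scn1a, Scn2a, Cacna1c, Cacna1d, Cacna1e, Cacna1i, Cacna2d4 and Cacnb2, of which Cacna1e was called in 1 with another scaling of the libraries.

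**Figure D1:**
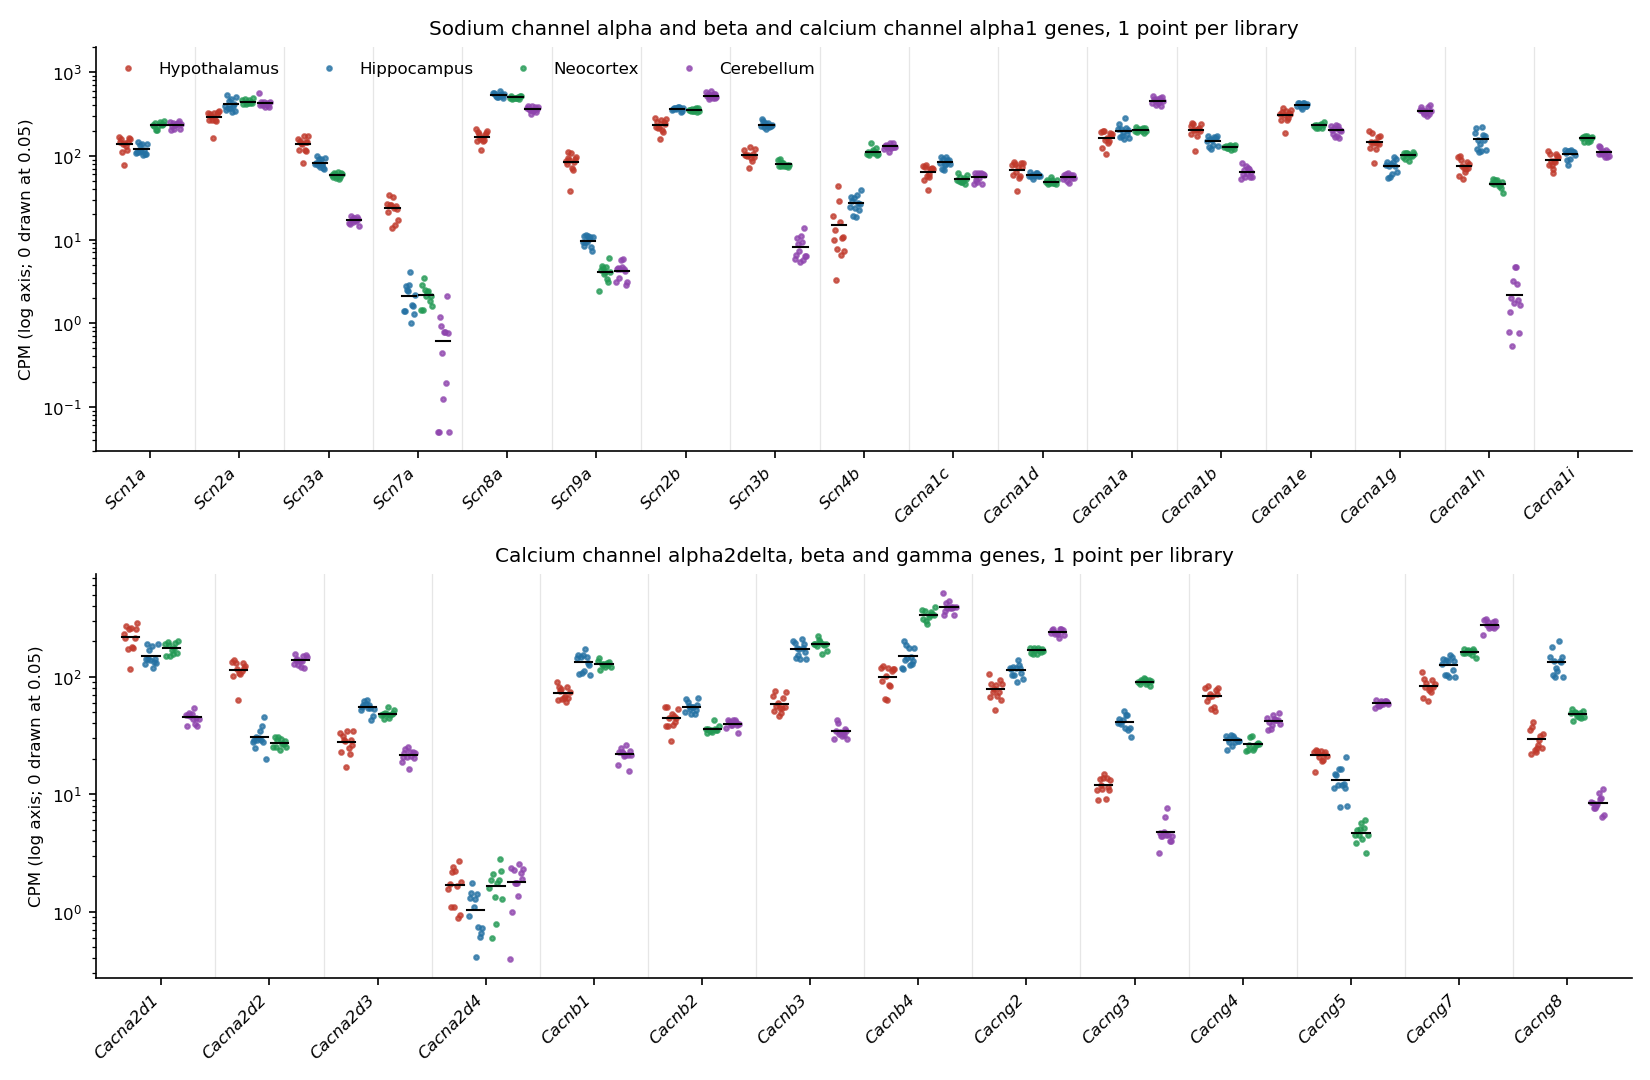
CPM of 31 genes with a mean of at least 1 CPM in a region, on a log axis, with 1 point per library (12, 12, 11 and 12 libraries) and a black line at each region's mean; values under 0.05, including 0, are drawn at 0.05. Scn7a and Scn9a stand highest in the hypothalamus, and Scn3b, Cacna1h, Cacnb1, Cacng3 and Cacng8 drop in the cerebellum, while Scn2a, Cacna1c and Cacna1d lie close together in all 4 regions.

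Among the sodium channel alpha genes of the main neuronal channels, Scn1a and Scn2a were not called in any contrast, and Scn8a was called in 2. Scn2a, which encodes a channel of axon initial segments and unmyelinated axons of excitatory neurons, measured 162 to 347 CPM (median 305) in the hypothalamus, 338 to 537 (396) in the hippocampus, 416 to 486 (438) in the neocortex and 379 to 564 (415) in the cerebellum. Scn1a, whose channel is prominent in fast-spiking inhibitory neurons and whose loss causes epilepsy, measured 78.3 to 168 CPM (median 145) in the hypothalamus, 101 to 148 (113) in the hippocampus, 201 to 262 (236) in the neocortex and 206 to 262 (239) in the cerebellum. For both, every difference between regions missed the test against 2-fold. Even so, the neocortical and cerebellar libraries of Scn1a all lay above the hypothalamic and hippocampal ones. Those of Scn2a all lay above the hypothalamic ones. Scn8a, the gene of the predominant channel of mature nodes of Ranvier, measured 118 to 207 CPM (median 169) in the hypothalamus, 492 to 599 (533) in the hippocampus, 481 to 524 (497) in the neocortex and 317 to 395 (363) in the cerebellum. The hypothalamic libraries all lay below those of every other region, and Scn8a was called higher in the hippocampus by 1.67 (SE 0.04, adjusted p 8.29e-21) and in the neocortex by 1.65 (SE 0.04, adjusted p 4.17e-20) on the log2 scale by edgeR. In the cerebellum its log2 difference from the hypothalamus, 1.03 (SE 0.04, adjusted p 0.43), did not pass.

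Scn7a and Scn9a were highest in the hypothalamus. Scn7a encodes Nax, an atypical member that senses extracellular sodium in the circumventricular organs. It measured 13.7 to 34.2 CPM (median 24.5) in the hypothalamus, 0.998 to 4.14 (1.92) in the hippocampus, 1.44 to 3.51 (2.12) in the neocortex and 0 to 2.12 (0.596) in the cerebellum, a separation of the hypothalamus without overlap. Its edgeR log2 fold changes against the hypothalamus were -3.51 (SE 0.17, adjusted p 1.77e-19), -3.32 (SE 0.18, adjusted p 2.70e-17) and -5.37 (SE 0.32, adjusted p 7.56e-23) in hippocampus, neocortex and cerebellum. Cerebellar levels of Scn7a were also below those of the hippocampus, -1.87 (SE 0.32, adjusted p 0.00535), and neocortex, -2.05 (SE 0.33, adjusted p 0.00138), with overlapping libraries. The call against the hippocampus was lost without replicate 3 (adjusted p 0.131). Scn9a, the gene of a channel that governs the excitability of pain-sensing neurons, measured 37.8 to 109.7 CPM (median 87.4) in the hypothalamus, 7.3 to 11.2 (9.75) in the hippocampus, 2.42 to 6.04 (4.08) in the neocortex and 2.84 to 5.82 (4.48) in the cerebellum. All hypothalamic values again lay above the rest, with edgeR log2 fold changes of -3.11 (SE 0.08, adjusted p 1.33e-29), -4.24 (SE 0.11, adjusted p 4.02e-34) and -4.37 (SE 0.12, adjusted p 3.58e-34) for hippocampus, neocortex and cerebellum. The cerebellum was lower than the hippocampus as well, by a log2 fold change of -1.25 (SE 0.12, adjusted p 0.0214) in edgeR, a call that was lost with DESeq2 (adjusted p 0.103) and without replicate 1 (0.113) or 3 (0.0574).

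Scn3a, a channel gene expressed most strongly in embryonic and newborn brain, formed a gradient: 83.2 to 173 CPM (median 144) in the hypothalamus, 69.7 to 98.9 (79.7) in the hippocampus, 52.9 to 63.8 (59.3) in the neocortex and 14.6 to 19.1 (17.2) in the cerebellum. The cerebellar libraries lay below all others, with edgeR log2 fold changes of -3.08 (SE 0.06, adjusted p 3.76e-35) against the hypothalamus, -2.35 (SE 0.06, adjusted p 1.37e-27) against the hippocampus and -1.94 (SE 0.07, adjusted p 1.56e-20) against the neocortex. The neocortex was also lower than the hypothalamus, -1.14 (SE 0.05, adjusted p 0.00713) in edgeR, which did not pass when genes of low count were kept (adjusted p 0.0551). Per kilobase of exon, Scn2a held 32% ± 0.946 (SD) of the alpha class in the hypothalamus and 42.1% ± 2.05 in the cerebellum. Scn8a held 15.2% ± 1.24 in the hypothalamus and 40.1% ± 3.64 in the hippocampus. The exon length merges all annotated exons of a gene, so all shares given here depend on the annotation. Scn7a and Scn9a made up 4.54% ± 0.843 and 9.22% ± 1.13 of the class in the hypothalamus, and at most 0.891% each elsewhere. Scn3a, Scn2a, Scn1a, Scn9a and Scn7a lie side by side within 1328 kb of chromosome 2, and of these 5 only Scn9a and Scn7a were called higher in the hypothalamus than in each other region.

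Another 3 alpha genes were near the limit of detection. Scn11a, a sensory neuron channel gene next to Scn10a on chromosome 9, had 34 counts in the hypothalamus, spread over 10 of 12 libraries, and 2, 2 and 3 counts in all hippocampal, neocortical and cerebellar libraries together. That is 0.681 CPM in the pooled hypothalamus and at most 0.0463 CPM in the other regions, although the hypothalamus had the smallest total count. Scn10a, also a sensory neuron gene, had 4, 3, 6 and 0 counts in hypothalamus, hippocampus, neocortex and cerebellum. Scn4a, the skeletal muscle gene, had 4, 2, 0 and 1. A count of 0 allows up to 0.0318 CPM in the pooled neocortex and 0.0463 CPM in the pooled cerebellum (3 counts, counting error only). None of these 3 genes passed the filter on low counts. When such genes were kept, edgeR called Scn11a lower than in the hypothalamus in hippocampus (adjusted p 3.19e-08), neocortex (3.74e-06) and cerebellum (5.96e-05). In these contrasts 13.8%, 14.2% and 15.6% of all 27620 genes were then called. Scn4a, on 4 counts against 0, was called lower in the neocortex than in the hypothalamus (adjusted p 0.0496).

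**Figure D2:**
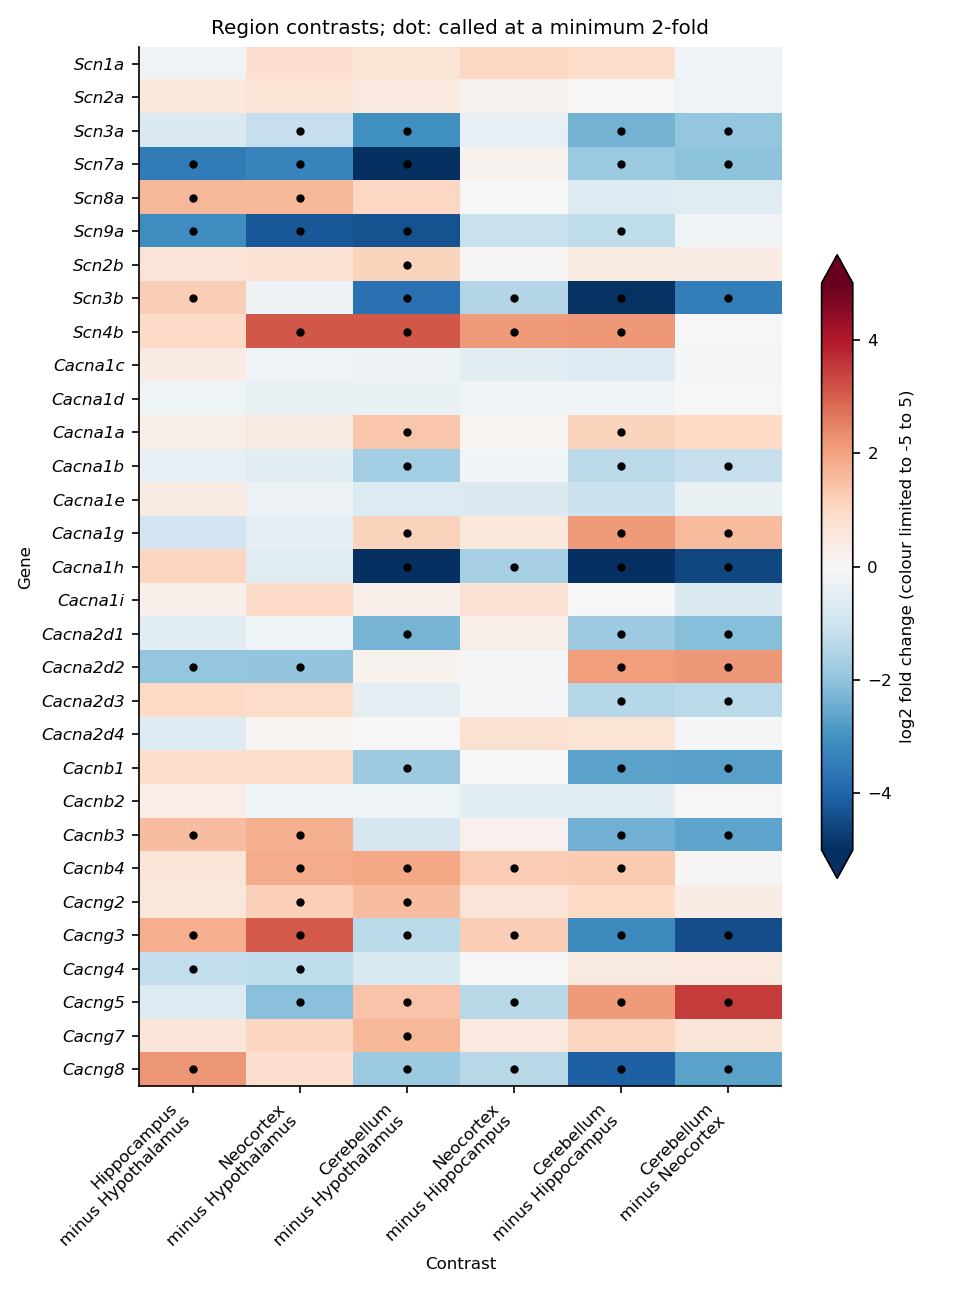
Log2 fold changes of 31 tested genes (rows) in the 6 region contrasts (columns), in colour limited to the range from -5 to 5, with a dot on each of their 78 calls at a minimum of 2-fold. The columns with the cerebellum carry the most dots (18, 18 and 14), and the column of neocortex against hippocampus the fewest (7).

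All 4 sodium channel beta genes were called in at least 1 contrast. Scn2b, the gene of a beta subunit linked to the pore by a disulfide bond, measured 159.9 to 279.5 CPM (median 233) in the hypothalamus, 338 to 387 (370.1) in the hippocampus, 333 to 375 (353) in the neocortex and 478 to 594 (522) in the cerebellum. The hypothalamic libraries were the lowest and the cerebellar the highest, but only the cerebellum passed against the hypothalamus, 1.11 (SE 0.04, adjusted p 0.00444) in edgeR. That call was lost with another scaling of the libraries (adjusted p 0.0738), with DESeq2 (0.392), without replicate 3 (0.0643) and without the hippocampus (0.0553).

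Scn3b was highest in the hippocampus and lowest in the cerebellum, where all 12 libraries had counts of it. This gene of a noncovalently bound beta subunit measured 209 to 275 CPM (median 232) in the hippocampus, 72.3 to 127 (102) in the hypothalamus, 73.6 to 91 (77.5) in the neocortex and 5.38 to 13.9 (7.0) in the cerebellum. Hippocampal libraries exceeded all others: the edgeR log2 fold change was 1.22 (SE 0.06, adjusted p 0.00127) against the hypothalamus, and the neocortex stood at -1.48 (SE 0.06, adjusted p 2.38e-09) against the hippocampus. Against the cerebellum the differences were the larger ones, with the cerebellum at -3.73 (SE 0.09, adjusted p 4.04e-33) relative to hypothalamus, -4.95 (SE 0.09, adjusted p 8.83e-41) to hippocampus and -3.47 (SE 0.09, adjusted p 1.62e-31) to neocortex. Scn4b had another pattern. Its product can act as an open-channel blocker and is tied to resurgent sodium current in Purkinje cells, and it measured 3.28 to 43.3 CPM (median 10.5) in the hypothalamus, 18.5 to 39.5 (27) in the hippocampus, 101 to 144 (111) in the neocortex and 112 to 144 (129) in the cerebellum. Neocortical and cerebellar libraries all lay above hypothalamic and hippocampal ones, with edgeR log2 fold changes of 3.09 (SE 0.16, adjusted p 3.50e-15) and 3.12 (SE 0.16, adjusted p 1.17e-15) against the hypothalamus and 2.13 (SE 0.12, adjusted p 2.08e-09) and 2.16 (SE 0.12, adjusted p 2.25e-10) against the hippocampus.

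Single libraries carried part of the spread of Scn4b. In the hypothalamus estrus library 3 had 43.3 CPM and metestrus library 1 29.3 CPM, and the other 10 ranged from 3.28 to 19 CPM. Adora2a, a gene defining striatal projection neurons, stood at 11.5 and 5.27 CPM in these libraries and at 0 to 2.18 CPM in the other hypothalamic ones. The summed level of all 14 striatal markers, each of which had counts in the hypothalamus, was highest in the same estrus library 3, at 496 CPM beside a median of 289.6. In the neocortex Scn4b was highest in estrus library 1, 144 CPM against 101 to 123 CPM in the others. Adora2a was 8.54 CPM there and 1.1 to 2.35 CPM in the others, and the striatal sum was 338 CPM beside a median of 218. Without these 3 libraries and 4 others that stood apart by Lars2, Tcf7l2 or Lhx9, chosen after the values were seen, Scn4b was also called higher in the hippocampus than in the hypothalamus (12 calls in that contrast rather than 11), and the other 5 contrasts kept exactly their calls. The part of striatal tissue in these Scn4b levels was not tested. Per kilobase, Scn2b held 45.4% ± 3.0 (SD) of the beta class in the hypothalamus.

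No contrast was called for the L-type (Cav1) pore genes Cacna1c and Cacna1d. Both encode the L-type channels of neurons that couple activity to gene transcription and pacemaking. Cacna1c measured 39.4 to 78 CPM (median 68.8) in the hypothalamus, 68.3 to 97.4 (83.4) in the hippocampus, 46.3 to 62.1 (51) in the neocortex and 45.9 to 63.2 (57.7) in the cerebellum. Cacna1d measured 37.8 to 84 CPM (median 73) in the hypothalamus, 53.4 to 64.4 (58.2) in the hippocampus, 45.7 to 55.4 (48.4) in the neocortex and 47 to 62.5 (57) in the cerebellum. The hypothalamic libraries of both genes overlapped those of every other region, whereas the hippocampal libraries of Cacna1c all lay above the neocortical and cerebellar ones. Per kilobase of exon, Cacna1d held 53.6% ± 2.09 (SD) of the class in the hippocampus and 63.1% ± 2.58 in the hypothalamus. Cacna1f, the retinal gene, had 15, 57, 24 and 1 counts in all libraries of hypothalamus, hippocampus, neocortex and cerebellum. Cacna1s, the skeletal muscle gene, had 38, 28, 8 and 29. Both stayed under 1 CPM on average and did not pass the filter on low counts for the region tests. When genes of low count were kept, edgeR called Cacna1f lower in the cerebellum than in hypothalamus (adjusted p 0.00341), hippocampus (7.00e-05) and neocortex (0.00304), and Cacna1s lower in the neocortex than in the hypothalamus (0.00454).

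Of the pore genes of presynaptic calcium channels (Cav2), Cacna1a was highest and Cacna1b lowest in the cerebellum. Cacna1a, the P/Q-type gene on which Purkinje cell transmission and firing depend, measured 105 to 200.4 CPM (median 171) in the hypothalamus, 161 to 281 (198) in the hippocampus, 187 to 219 (204) in the neocortex and 398 to 513 (462) in the cerebellum. The cerebellar libraries lay above all others, with edgeR log2 fold changes of 1.41 (SE 0.06, adjusted p 2.90e-08) against the hypothalamus and 1.12 (SE 0.06, adjusted p 0.0396) against the hippocampus. The latter was not called with another scaling (adjusted p 0.0766), with DESeq2 (0.552) or without replicate 1 (0.0555) or 3 (0.593), and the change against the neocortex, 1.01 (SE 0.06, adjusted p 1), did not pass. Cacna1b, the N-type gene, ran the other way: 116 to 244 CPM (median 208) in the hypothalamus, 119 to 175 (157) in the hippocampus, 119 to 136 (129) in the neocortex and 53.2 to 82.4 (63.3) in the cerebellum. The cerebellum was below every other region, at -1.73 (SE 0.06, adjusted p 1.67e-15), -1.3 (SE 0.06, adjusted p 8.14e-06) and -1.15 (SE 0.06, adjusted p 0.0159) on the log2 scale against hypothalamus, hippocampus and neocortex in edgeR. The last of these was lost with DESeq2 (adjusted p 0.144) and without replicate 1 (0.368) or 3 (0.0531). Cacna1e, the R-type gene, measured 186 to 374 CPM (median 317) in the hypothalamus, 367 to 429 (405) in the hippocampus, 213 to 257 (235) in the neocortex and 164 to 233 (205) in the cerebellum and was not called. Its log2 fold change in the cerebellum against the hippocampus was -1.09 (SE 0.05, adjusted p 0.0761), with no overlap of libraries, and it was called there with another scaling (adjusted p 0.0381). As a share of the class per kilobase, Cacna1a held 30.6% ± 1.69 (SD) in the hypothalamus and 73.5% ± 1.53 in the cerebellum, and Cacna1b held 43.6% ± 1.7 and 11.9% ± 1.09 in these regions. In the hippocampus and neocortex Cacna1a held 35.7% ± 2.92 and 44.7% ± 1.33 and Cacna1b 31.1% ± 1.98 and 32.4% ± 1.31.

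Of the T-type (Cav3) pore genes, Cacna1h was highest in the hippocampus and Cacna1g in the cerebellum. Cacna1h, a T-type gene also prominent in sensory neurons, measured 110.4 to 223 CPM (median 155) in the hippocampus, 52.6 to 98.5 (73.1) in the hypothalamus, 36.2 to 52.3 (46.9) in the neocortex and 0.532 to 4.7 (1.82) in the cerebellum. The cerebellar libraries lay far below the rest, with edgeR log2 fold changes of -5.16 (SE 0.29, adjusted p 5.72e-28), -6.22 (SE 0.29, adjusted p 1.85e-33) and -4.55 (SE 0.29, adjusted p 8.23e-25) against hypothalamus, hippocampus and neocortex, and the neocortex was below the hippocampus, -1.67 (SE 0.10, adjusted p 6.27e-08). Cacna1g, the T-type gene of thalamic relay and Purkinje cells, measured 82.7 to 199 CPM (median 143) in the hypothalamus, 54.1 to 95.8 (76.6) in the hippocampus, 86.8 to 110.0 (104) in the neocortex and 296 to 401 (343) in the cerebellum. Here the cerebellum was above all others, at 2.13 (SE 0.07, adjusted p 1.71e-20) against the hippocampus, 1.6 (SE 0.07, adjusted p 9.94e-11) against the neocortex and 1.16 (SE 0.07, adjusted p 0.0206) against the hypothalamus on the log2 scale in edgeR. The call against the hypothalamus was lost with another scaling (adjusted p 0.0828), with DESeq2 (0.603) and without replicate 2 (0.127) or 3 (0.098). Cacna1i, the T-type gene prominent in the thalamic reticular nucleus, measured 62.4 to 115 CPM (median 86) in the hypothalamus, 77.8 to 117 (110.2) in the hippocampus, 145 to 175 (164) in the neocortex and 96.2 to 132 (109.6) in the cerebellum and was not called. Per kilobase, the leading gene differed between regions: Cacna1h held 46.6% ± 3.78 (SD) of the class in the hippocampus, Cacna1i 52.7% ± 1.23 in the neocortex, and Cacna1g 46.3% ± 3.25 in the hypothalamus and 74.9% ± 1.54 in the cerebellum.

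**Figure D3:**
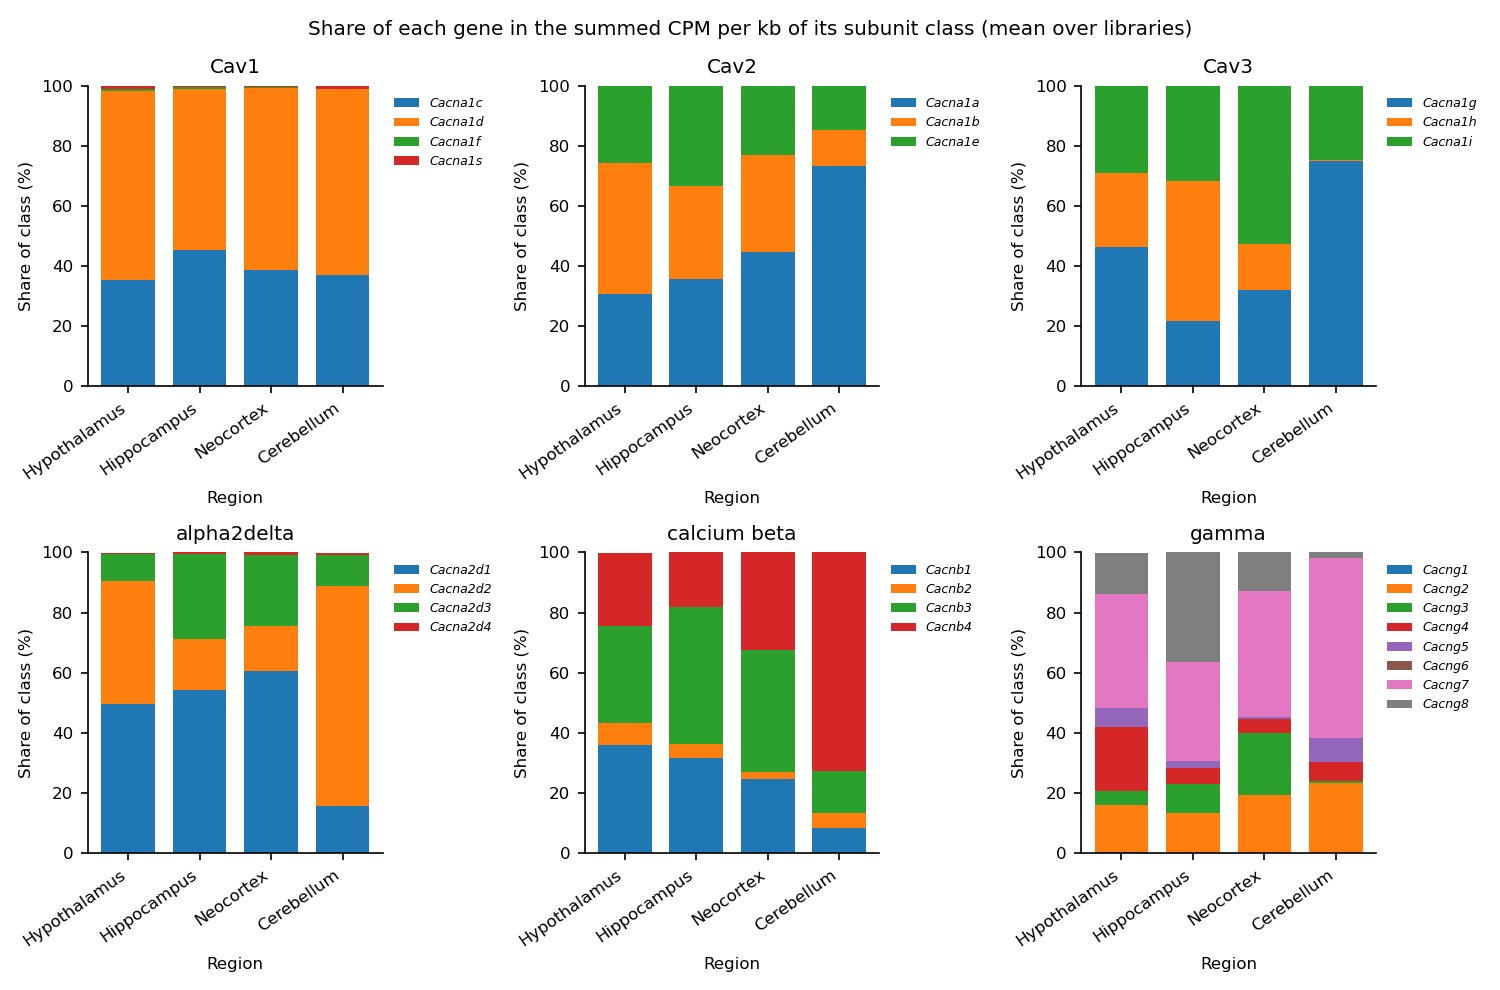
Each gene's mean share (%) of the summed CPM per kilobase of exon of its subunit class, for the 6 classes of calcium channel genes in each of the 4 regions. Cacna1a, Cacna1g, Cacna2d2 and Cacnb4 each hold over 70% of their class in the cerebellum, and Cacna1h and Cacng8 have their largest shares in the hippocampus.

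Cacna2d1 and Cacna2d2, whose promoters are printed above and whose proteins bind gabapentin, had opposite cerebellar levels. Cacna2d1 measured 116 to 286 CPM (median 224) in the hypothalamus, 119 to 192 (141) in the hippocampus, 151 to 201 (175) in the neocortex and 38.3 to 54.7 (45.8) in the cerebellum. Cerebellar libraries lay below all others, with edgeR log2 fold changes of -2.34 (SE 0.09, adjusted p 5.88e-21), -1.82 (SE 0.08, adjusted p 1.49e-13) and -2.12 (SE 0.09, adjusted p 5.48e-18) against hypothalamus, hippocampus and neocortex. Cacna2d2, which is mutated in the ataxic ducky mouse, measured 63 to 138 CPM (median 117) in the hypothalamus, 19.9 to 45.1 (28.8) in the hippocampus, 24 to 30.8 (26.9) in the neocortex and 119.7 to 157 (137) in the cerebellum. The hypothalamus and cerebellum thus formed a high group and the hippocampus and neocortex a low one, with no overlap between the groups. Relative to the hypothalamus the edgeR log2 fold change was -1.92 (SE 0.07, adjusted p 6.71e-17) in the hippocampus and -1.98 (SE 0.07, adjusted p 3.76e-17) in the neocortex, and the cerebellum stood at 2.1 (SE 0.07, adjusted p 1.19e-20) and 2.16 (SE 0.07, adjusted p 1.31e-20) against these regions. Cacna2d3 measured 17 to 34.5 CPM (median 28.8) in the hypothalamus, 42.8 to 64 (54.9) in the hippocampus, 43.4 to 54.9 (48.2) in the neocortex and 16.5 to 25.4 (21.7) in the cerebellum. It was lower in the cerebellum than in the hippocampus, -1.43 (SE 0.06, adjusted p 9.46e-11), and neocortex, -1.34 (SE 0.06, adjusted p 5.15e-08), by edgeR. Cacna2d4, known from photoreceptors, was at 0.883 to 2.67 CPM (median 1.69) in the hypothalamus, 0.414 to 1.77 (1.0) in the hippocampus, 0.601 to 2.82 (1.74) in the neocortex and 0.391 to 2.53 (1.83) in the cerebellum and was not called. Per kilobase, Cacna2d2 held 73.3% ± 2.64 (SD) of the class in the cerebellum and 14.9% ± 2.03 in the neocortex, where Cacna2d1 held 60.5% ± 3.35.

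Of the calcium channel beta genes, whose proteins bind the pore inside the cell and bring it to the membrane, 3 were called between regions and Cacnb2 was not. Cacnb1 measured 61.3 to 90.1 CPM (median 71.2) in the hypothalamus, 104 to 173 (139) in the hippocampus, 113 to 144 (128) in the neocortex and 15.8 to 26 (22.2) in the cerebellum. It was lowest in the cerebellum without overlap, at -1.8 (SE 0.08, adjusted p 9.25e-14), -2.69 (SE 0.08, adjusted p 2.18e-27) and -2.71 (SE 0.08, adjusted p 2.77e-27) against hypothalamus, hippocampus and neocortex on the log2 scale in edgeR. Cacnb3 measured 46 to 75.5 CPM (median 56) in the hypothalamus, 141 to 210.2 (175) in the hippocampus, 155 to 223 (189) in the neocortex and 29.7 to 43.1 (33.4) in the cerebellum. The hippocampal and neocortical libraries formed the upper group: edgeR log2 fold changes against the hypothalamus were 1.55 (SE 0.06, adjusted p 1.81e-11) and 1.78 (SE 0.07, adjusted p 5.42e-16), and the cerebellum stood at -2.4 (SE 0.07, adjusted p 2.02e-26) and -2.62 (SE 0.07, adjusted p 9.35e-29) against them. Cacnb4, which is mutated in the lethargic mouse, measured 63 to 123 CPM (median 107) in the hypothalamus, 117 to 203 (141) in the hippocampus, 284 to 395 (339) in the neocortex and 333 to 521 (388) in the cerebellum. Neocortical and cerebellar libraries all lay above the others, with edgeR log2 fold changes of 1.86 (SE 0.09, adjusted p 5.35e-13) and 1.93 (SE 0.09, adjusted p 1.83e-14) against the hypothalamus and 1.26 (SE 0.08, adjusted p 0.00584) and 1.33 (SE 0.08, adjusted p 1.41e-04) against the hippocampus. The neocortical difference from the hippocampus was lost with DESeq2 (adjusted p 0.109). Of the exon bases of Cacnb4, 16.0% overlap A430018G15Rik on the opposite strand, and no source used here states whether counting used the strand, so reads of the pair cannot be told apart there. Cacnb2 measured 28.5 to 55 CPM (median 44.8) in the hypothalamus, 47.8 to 65.4 (55.1) in the hippocampus, 33 to 42.6 (35.4) in the neocortex and 33.5 to 43.2 (40.5) in the cerebellum and was not called. Per kilobase, Cacnb4 made up 72.7% ± 3.38 (SD) of the class in the cerebellum, while Cacnb3 led in the hippocampus with 45.8% ± 2.94 and Cacnb1 in the hypothalamus with 35.7% ± 3.25.

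Among the gamma genes, the TARP genes Cacng8 and Cacng3 marked the hippocampus and the neocortex. Cacng8 measured 99.7 to 201 CPM (median 134) in the hippocampus, 22.2 to 41.5 (27.5) in the hypothalamus, 42.1 to 53.6 (48.7) in the neocortex and 6.35 to 11 (8.31) in the cerebellum. Every hippocampal library exceeded every other, with edgeR log2 fold changes of 2.22 (SE 0.10, adjusted p 5.36e-17) for the hippocampus against the hypothalamus, -1.4 (SE 0.09, adjusted p 4.07e-05) for the neocortex against the hippocampus and -4.07 (SE 0.13, adjusted p 2.11e-31) for the cerebellum against the hippocampus. The cerebellum was also below the hypothalamus, -1.85 (SE 0.14, adjusted p 8.88e-09), and the neocortex, -2.67 (SE 0.14, adjusted p 2.37e-19). Cacng3 measured 83.1 to 96.7 CPM (median 91.3) in the neocortex, 30.8 to 51.6 (41) in the hippocampus, 8.86 to 15 (11.7) in the hypothalamus and 3.13 to 7.56 (4.44) in the cerebellum, 4 levels without overlap. Its edgeR log2 fold changes were 1.82 (SE 0.07, adjusted p 3.23e-14) for hippocampus and 3.06 (SE 0.07, adjusted p 1.89e-30) for neocortex against hypothalamus, and 1.25 (SE 0.06, adjusted p 1.65e-04) between those regions. The cerebellum stood at -1.36 (SE 0.10, adjusted p 6.85e-04), -3.18 (SE 0.10, adjusted p 1.14e-29) and -4.42 (SE 0.10, adjusted p 1.42e-38) against hypothalamus, hippocampus and neocortex.

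Cacng2, Cacng5 and Cacng7 were highest in the cerebellum. Cacng2 encodes stargazin, which brings AMPA receptors to the surface of cerebellar granule cells, and measured 52.6 to 105 CPM (median 76.5) in the hypothalamus, 90.7 to 139.6 (118) in the hippocampus, 157 to 176 (170.1) in the neocortex and 215 to 257 (239.9) in the cerebellum. It was higher than in the hypothalamus in the neocortex, 1.2 (SE 0.05, adjusted p 3.28e-04), and in the cerebellum, 1.56 (SE 0.05, adjusted p 2.27e-14), by edgeR. Cacng7 measured 62.4 to 111 CPM (median 81.9) in the hypothalamus, 99.6 to 152 (132) in the hippocampus, 145 to 173 (165) in the neocortex and 228 to 309 (271) in the cerebellum, and the cerebellum was higher than the hypothalamus, 1.67 (SE 0.06, adjusted p 7.03e-15). Cacng5 measured 15.3 to 23.8 CPM (median 22.1) in the hypothalamus, 7.78 to 20.6 (12.1) in the hippocampus, 3.13 to 6.07 (4.48) in the neocortex and 53.9 to 63.2 (59.5) in the cerebellum. The cerebellar libraries lay above all others, with edgeR log2 fold changes of 1.43 (SE 0.10, adjusted p 3.68e-05), 2.12 (SE 0.09, adjusted p 7.76e-17) and 3.51 (SE 0.12, adjusted p 3.07e-27) against hypothalamus, hippocampus and neocortex. The neocortical ones lay below all others, at -2.08 (SE 0.13, adjusted p 1.40e-11) against the hypothalamus and -1.38 (SE 0.13, adjusted p 0.00331) against the hippocampus. The last of these was lost without replicate 2 (adjusted p 0.678). Cacng4 was highest in the hypothalamus, with 50.7 to 84 CPM (median 69.7) in the hypothalamus, 24 to 31.8 (28.7) in the hippocampus, 23.4 to 31.6 (26.4) in the neocortex and 35.4 to 49.2 (42.7) in the cerebellum. It was lower in the hippocampus, -1.24 (SE 0.05, adjusted p 5.12e-05), and neocortex, -1.27 (SE 0.06, adjusted p 2.15e-05), than in the hypothalamus by edgeR. Cacng5 and Cacng4 lie within the same 212 kb of chromosome 11 as Cacng1, and Cacng7 and Cacng8 within the same 103 kb of chromosome 7 as Cacng6. Cacng1, the skeletal muscle gamma gene, had 4, 1, 0 and 0 counts in hypothalamus, hippocampus, neocortex and cerebellum, and Cacng6 had 0, 35, 8 and 0, and neither passed the filter on low counts. When such genes were kept, edgeR called Cacng6 higher in the hippocampus than in the hypothalamus (adjusted p 0.00295) and cerebellum (5.57e-04). Per kilobase, Cacng7 held the largest share of the class in the hypothalamus (37.9% ± 1.87, SD), neocortex (41.9% ± 1.27) and cerebellum (59.8% ± 1.91), and Cacng8 in the hippocampus (36.5% ± 3.41).

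Genes whose proteins bind or regulate these channels also differed between regions. From a list of 28 partners, 27 were found and 26 tested. There were 8, 9, 9, 5, 9 and 7 calls in the hippocampus against hypothalamus, neocortex against hypothalamus, cerebellum against hypothalamus, neocortex against hippocampus, cerebellum against hippocampus and cerebellum against neocortex. The share of all genes called was 14%, 16.1%, 18.5%, 7.56%, 18.9% and 17.1%. Of these, 7, 6, 5, 1, 3 and 2 were higher in the region named first. Rimbp2, whose product links presynaptic calcium channels to the release machinery, was lower in the cerebellum than in the hypothalamus, -3.91 (SE 0.14, adjusted p 1.30e-30), hippocampus, -4.41 (SE 0.14, adjusted p 1.24e-34), and neocortex, -4.5 (SE 0.14, adjusted p 7.36e-35), on the log2 scale in edgeR. Stac, an adaptor of L-type channels, was higher in the cerebellum than in these regions, at 2.4 (SE 0.16, adjusted p 1.14e-12), 1.81 (SE 0.12, adjusted p 3.46e-09) and 5.4 (SE 0.26, adjusted p 4.83e-27). It was lower in the neocortex than in the hypothalamus, -3.0 (SE 0.26, adjusted p 6.10e-10), and hippocampus, -3.59 (SE 0.26, adjusted p 5.02e-15). Its relative Stac2 was higher than in the hypothalamus in the neocortex, 3.47 (SE 0.10, adjusted p 8.83e-30), and hippocampus, 2.37 (SE 0.09, adjusted p 3.65e-19), by edgeR.

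The intracellular fibroblast growth factor homologues bind the tail of sodium channel pores. Of these, Fgf13 was lower in the cerebellum than in the hippocampus, -3.34 (SE 0.06, adjusted p 2.04e-36), and Fgf14 was higher there, 1.41 (SE 0.09, adjusted p 1.64e-05), by edgeR. Fgf11 was higher in the cerebellum than in the hypothalamus, 2.19 (SE 0.08, adjusted p 1.80e-19), and neocortex, 1.61 (SE 0.07, adjusted p 1.54e-11), and Fgf12 was higher in the neocortex than in the hippocampus, 1.48 (SE 0.09, adjusted p 8.16e-06). The small GTPases Rrad, Gem and Rem2 inhibit high-voltage-activated calcium channels. Rrad was lower than in the hypothalamus in hippocampus, -3.73 (SE 0.20, adjusted p 8.83e-20), and neocortex, -3.13 (SE 0.20, adjusted p 1.56e-15), whereas Rem2 was higher in the hippocampus than in the hypothalamus, 2.38 (SE 0.18, adjusted p 4.31e-11), by edgeR. Gem was lower in the cerebellum than in the hypothalamus, -3.7 (SE 0.42, adjusted p 1.37e-07), and neocortex, -3.66 (SE 0.42, adjusted p 9.35e-08). The active zone scaffold gene Rims1 was higher in the neocortex than in the hypothalamus, 2.0 (SE 0.06, adjusted p 1.86e-21), and Cachd1, a relative of the alpha2delta genes, was lower in the neocortex than in the hippocampus, -2.8 (SE 0.10, adjusted p 5.79e-24), by edgeR.

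The estrous stage moved none of the channel genes past the test. Within each region, edgeR's quasi-likelihood test of any difference among the 4 stages called 0 of 32 channel genes in the hypothalamus, 0 of 33 in the hippocampus, 0 of 32 in the neocortex and 0 of 31 in the cerebellum, where 0% of all genes were called in each. At an unadjusted p under 0.05 there were 0, 1, 3 and 2 channel genes, beside 1.54%, 1.47%, 5.61% and 1.72% of all genes tested. DESeq2 called 0 channel genes in each of these 4 tests. None of the 6 pairs of stages gave a call in edgeR in any region, for channel genes or any gene. Of all 33 or fewer genes in a region, 31 (hypothalamus), 30 (hippocampus), 30 (neocortex) and 28 (cerebellum) had limma 95% intervals within 2-fold in either direction for all 6 pairs, so that larger stage differences lie outside the interval for them. The exceptions included Scn4b in the hypothalamus, Scn7a and Cacna2d4 in the hippocampus, Scn7a and Cacna2d4 in the neocortex, and Scn9a, Cacna1h and Cacna2d4 in the cerebellum. The summed CPM per kilobase of a subunit class varied between stages. The ratio of highest to lowest mean was 1.02 to 1.29 over the 32 class-by-region pairs, and under 1.2 in 27 of them. All the larger ratios (1.21 to 1.29) were in the hypothalamus, with the lowest mean at estrus. That group holds estrus library 3, the library with the most Lars2, and these sums are CPM without TMM normalization.

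In the neocortex, Scn1a had the smallest p of the stage test. Its level was 202 and 201 CPM in the 2 estrus libraries and 227 to 262 CPM in the other 9, so that the estrus libraries were the lowest (adjusted p = 0.765, edgeR). Its log2 difference of diestrus from estrus was 0.31 (limma 95% interval 0.17 to 0.45, edgeR adjusted p 0.182). DESeq2 called that difference (adjusted p 0.0237), as did edgeR when genes of low count were kept (0.0265). Cacng4 went the other way, with 30.6 and 31.6 CPM at estrus and 23.4 to 27.4 CPM at the other stages (adjusted p = 0.776, edgeR). In the hypothalamus the smallest p were those of Scn1a (adjusted p = 1, edgeR) and Cacnb4 (adjusted p = 1). Scn1a was 78.3, 113 and 138 CPM at estrus and 147 to 168 CPM at proestrus, and its lowest library is the one with 134978 CPM of Lars2. Cacnb4 was 63, 64.9 and 103 CPM at estrus and 91.7 to 123 CPM at proestrus.

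In the hippocampus, Cacna2d3 (adjusted p = 1, edgeR) and Cacng3 (adjusted p = 1) had the smallest p. Cacna2d3 was 42.8 to 53.2 CPM at diestrus and 58.9 to 64 CPM at estrus, without overlap between these stages, a log2 difference of -0.34 (limma 95% interval -0.56 to -0.12, edgeR adjusted p 0.999). Cacng3 was 30.8 to 36.8 CPM at diestrus and 39.8 to 51.6 CPM at estrus. In the cerebellum the 2 T-type genes Cacna1h (adjusted p = 1, edgeR) and Cacna1i (adjusted p = 1) had the smallest p. Cacna1i was 104 to 132 CPM at proestrus and 96.2 to 112 CPM at diestrus, with overlap.

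In the cerebellum Cacna1h measured 4.7, 4.65 and 2.92 CPM at metestrus and 0.532, 3.19 and 1.75 at estrus. It ran from 0.782 to 1.99 at proestrus and 0.757 to 1.88 at diestrus. The metestrus libraries lay above those of proestrus and diestrus, and estrus library 2 lay among them. The log2 difference of diestrus from metestrus was -1.53 (limma 95% interval -2.63 to -0.45, edgeR adjusted p 1). Tcf7l2, which encodes a transcription factor known from the thalamus, was 37.0, 38.6 and 21.2 CPM in metestrus libraries 1 and 2 and estrus library 2, the 3 with the most Cacna1h, and 4.47 to 10.2 CPM in the other 9. Lhx9, a LIM homeobox gene, was 8.82, 7.37 and 3.77 CPM in the same 3 libraries and 0.189 to 1.56 CPM in the others. The part of neighbouring tissue in the Cacna1h values was not tested. Both genes belong to the list of 12 thalamic markers, none of which was at 0. The summed level of the list ranged from 1279 to 1478 CPM over the cerebellar libraries and was highest in proestrus library 1. Its median was 1388 CPM in the cerebellum against 116 to 503 CPM elsewhere. A rise of the size seen for Tcf7l2 is small beside that range, so the sum cannot show it. Whether stage differences varied with region was tested with an interaction over all 47 libraries. In it edgeR called 0 of 34 channel genes and 0% of all genes. At an unadjusted p under 0.05 there were 0 channel genes and 276 of all 18152 genes, and DESeq2 called 0 channel genes. The smallest p in that test were 0.0835 for Cacna1h and 0.121 for Cacna2d3, both with an adjusted p of 1 in edgeR.

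**Figure D4:**
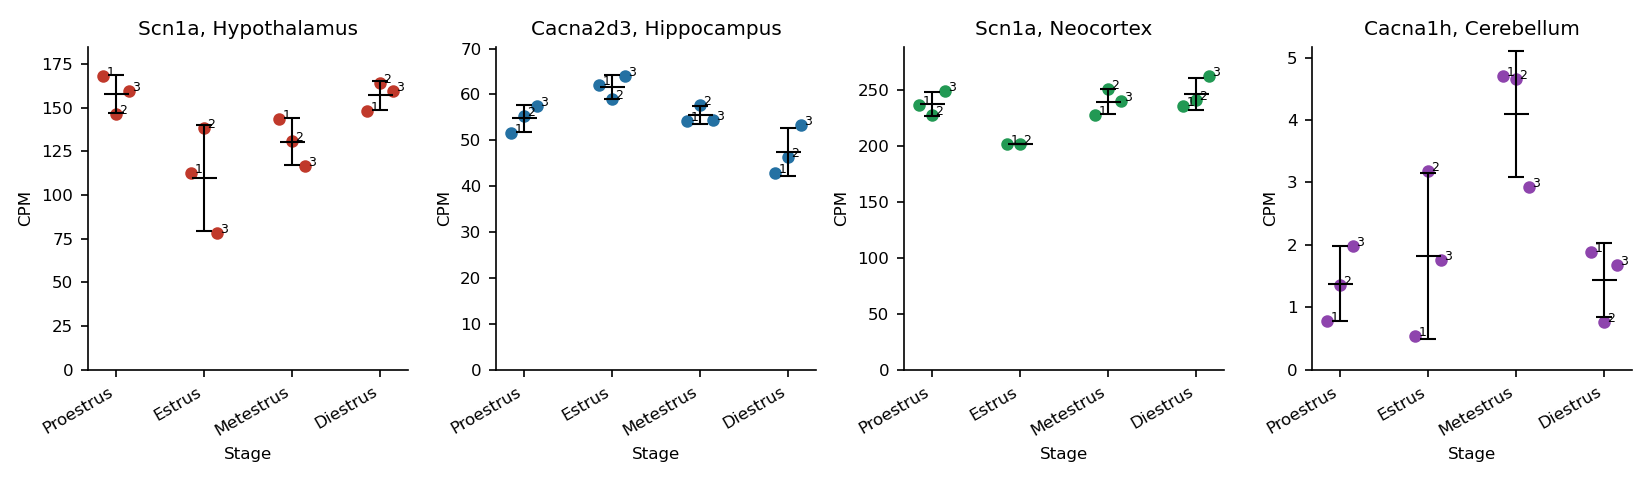
CPM by stage of the channel gene with the smallest stage-test p in each region, with 1 numbered point per library and black bars for the mean ± SD (n = 3, and 2 for the neocortex at estrus); axes start at 0. The 2 neocortical estrus libraries of Scn1a sit at 202 and 201 CPM, below the other 9, and the metestrus libraries of Cacna1h in the cerebellum lie between 2.92 and 4.7 CPM; none of the 4 genes passed the stage test.

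The libraries of one region varied by a typical SD of 0.295, 0.207, 0.0996 and 0.141 on the log2 scale (median over the tested genes) in hypothalamus, hippocampus, neocortex and cerebellum. In the hippocampus this variation followed the base composition of the transcripts, a pattern noticed after the values were seen. The first principal component of the 33 genes there took 49.4% of the variance, and its loadings correlated with the GC content of the longest transcript at r = 0.87 across the 33 genes, which are not independent replicates. The same r was -0.20 in the hypothalamus, 0.23 in the neocortex and -0.09 in the cerebellum. In the hypothalamus estrus library 3 scored -0.81 on the component and the other libraries -0.20 to 0.26, so this r mostly describes that library. In metestrus library 2, Cacna1h was 223 and Cacng8 201 CPM while Scn2a was 338 CPM. In proestrus library 3 these were 119, 103 and 537 CPM. Over all 15971 genes, the slope of the log2 level against GC content ran from -0.25 per 10 percentage points in proestrus library 3 to 0.26 in metestrus library 2, so that the shift was not limited to channel genes. Slopes over all genes also varied in the other regions: -0.17 to 0.17 in the hypothalamus, -0.15 to 0.11 in the neocortex and -0.13 to 0.14 in the cerebellum. The regional calls of Cacna1h and Cacng8 named above rest on libraries that did not overlap between regions. In contrasts with the hippocampus this does not separate region from library preparation, since a shift shared by all its libraries would also leave no overlap. The part of library preparation in the hippocampal GC shift was not tested.

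**Figure D5:**
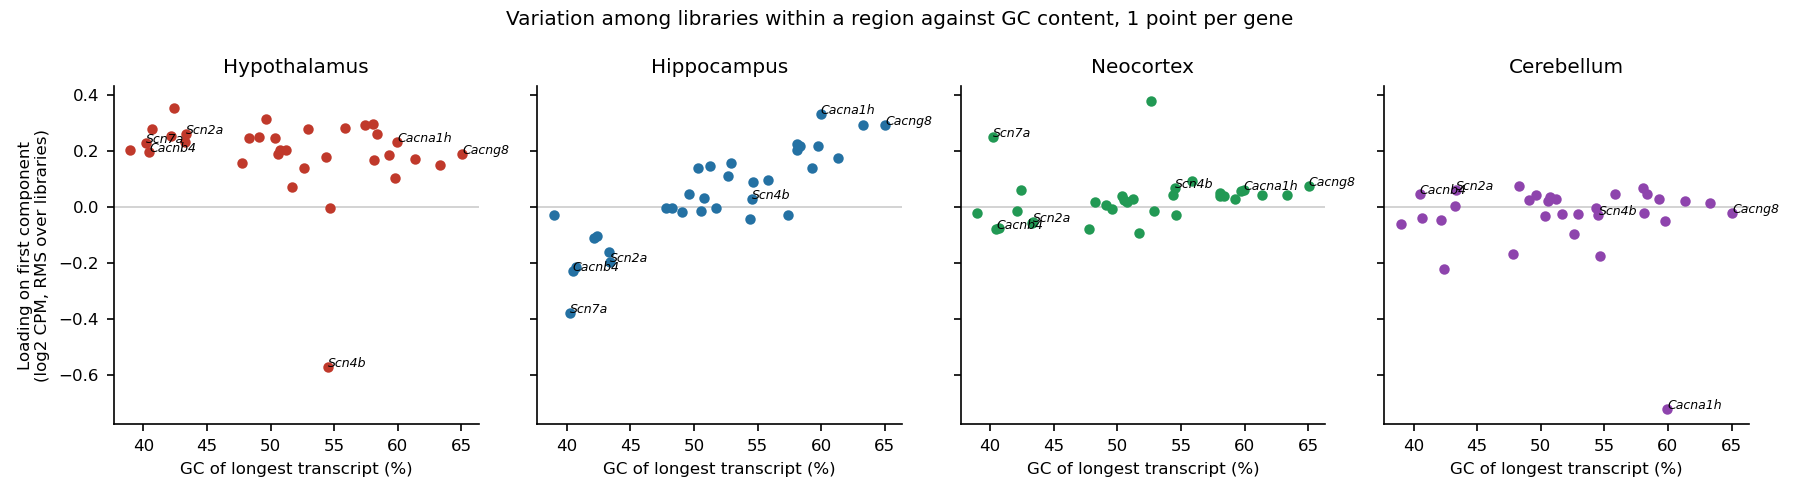
Loading of each channel gene on the first principal component of log2 CPM within a region, in log2 units, against the GC content (%) of its longest transcript, with 1 point per gene (33, 33, 32 and 31 genes); the sign of a component is arbitrary. Loadings rise with GC content in the hippocampus (r = 0.87), whereas in the hypothalamus and cerebellum a single gene, Scn4b or Cacna1h, lies far from the rest.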

How the data were processed

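Counts per gene were deposited by the authors for 4 brain regions in 47 libraries, as raw counts without normalization. Reads were processed with the tools Cufflinks 2.1.1, DESeq 1.12.1, SAMtools, TopHat2 2.0.8 and Trimmomatic 0.32 (in no stated order) on GRCm38/mm10, per the submitters' processing notes. The counting program, its treatment of strand and of reads that fit several similar genes are not given in the sources used, nor is the annotation. GENCODE M21 matched 35449 of 37315 genes. The neocortex has 2 estrus libraries here; any other was not used.

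CPM are counts over the library total, and per-kilobase values divide by the merged exon length. Genes past edgeR's filterByExpr (minimum count 10, minimum total 15) were tested with edgeR 4.0.16 in R 4.3.3 on TMM-normalized counts: stage within each region (quasi-likelihood, 3 degrees of freedom, and 6 pairs of stages), region over all libraries with stage as a covariate (glmTreat at 2-fold) and their interaction. Adjusted p are Benjamini-Hochberg over all genes tested, with a threshold of 0.05. Intervals and SE are from limma 3.58.1 (voom), and alternatives used DESeq2 1.42.0, other scaling and filters, a replicate term and left-out libraries. The fits were tried on counts simulated with known changes in 200 genes with a mean count over 50. Stage changes of 2-fold were recovered at 96.5% in the hypothalamus and 100% in the neocortex, with 5.39% and 9.91% of calls false. In the interaction 81.5% of 2-fold changes were recovered (2.98% of calls false). For neocortex against hypothalamus, 100% of 4-fold changes were recovered (0% false). Of 46 replicate pairs, 0 held identical values. Nothing says that libraries came from separate animals in every case, so p-values measure the spread between libraries.

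The genes, marker lists and partner list were chosen with earlier results of these data known. The rows of 2 members enter the fits and counts but are not reported here by name. By rule, every other member is described within its subunit class, with up to 5 called genes in each direction and contrast, the 2 smallest p per stage test, and up to 2 called partners in each direction.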

Additional observations from a re-analysis of the deposited data

How the results depend on the processing

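No region call reversed direction under the alternatives run. Without a minimum fold, 33, 32, 32, 25, 31 and 25 of 33 genes were called. The contrasts, in order, were hippocampus against hypothalamus, neocortex against hypothalamus, cerebellum against hypothalamus, neocortex against hippocampus, cerebellum against hippocampus and cerebellum against neocortex. The 2-fold limit then no longer applies, and the share of all genes called without it was not counted. Leaving out replicate 1, 2 or 3 in turn, or the hippocampus, gave 11 to 11, 14 to 14, 18 to 20, 7 to 8, 16 to 19 and 13 to 14 calls in the same order. With the replicate block the counts were 11, 14, 20, 8, 20 and 14 in that order, with Cacna1e added in the cerebellum against hippocampus (adjusted p 0.0442), and 0 for every stage test and the interaction. Equal replicate numbers were not taken as pairs: 14 of 69 same-number pairs across regions correlated over 0.1 (range -0.18 to 0.24), and 13 of 69 across stages (-0.36 to 0.51). A library correlated best with its own number in 68 of 138 comparisons across regions (49.3%) and in 43 of 138 across stages (31.2%). Each comparison chose among 3 libraries, or 2 for the neocortex at estrus. The higher share across regions is a hint of pairs, and libraries of equal stage and number also had the same age in every region. No label names the mouse, and the main region tests treated all libraries as independent. For stage, DESeq2 called 1 gene among pairs of stages in the neocortex (Scn1a), and keeping genes of low count called 2 there (Scn1a, and Cacnb4 at an adjusted p of 0.0202) and 1 in the cerebellum (Cacna1h, adjusted p 0.04997); the cause was not tested. Leaving out any 1 library gave 0 to 0 stage calls in every region.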

Other observations

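Stage was also tested with each library's slope of level on GC content as a covariate, an alternative chosen after seeing the data. In edgeR it called 0 channel genes in each region, and 0 of all genes in each stage test, with unadjusted p under 0.05 for 1 of 32 channel genes in the hypothalamus, 3 of 33 in the hippocampus, 2 of 32 in the neocortex and 3 of 31 in the cerebellum. Cacna2d3 remained the hippocampal channel gene of smallest p (adjusted p 0.923), whereas that place was taken by Cacng4 in the neocortex (0.781) and Cacna1i in the cerebellum. Across the 33 channel genes, the correlation of GC content with the log2 fold change was 0.35 for hippocampus against hypothalamus, and between -0.10 and 0.22 for the other 5 region contrasts. These are descriptions across genes, which are not independent replicates.

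The beta genes Scn2b and Scn4b are neighbours within 36.4 kb of chromosome 9 and were both lowest in the hypothalamus and highest in the cerebellum by mean CPM. Scn2b spanned 2.26-fold between its lowest and highest regional mean CPM and Scn4b 8.79-fold. Cacna1h spanned 72.0-fold and Scn7a 39.0-fold, and the narrowest span of the 33 genes was that of Cacna1d at 1.39-fold. Of the 33 genes, 12 had their highest regional mean in the cerebellum, 9 in the hippocampus, 8 in the hypothalamus and 4 in the neocortex, and 13 had their lowest in the cerebellum.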
